A study of Mus musculus with 2 samples.

Results

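Gasdermins are proteins that form pores in membranes. Each full-length gasdermin has an amino-terminal part able to assemble a pore and a carboxy-terminal part that holds it back, and a protease that cuts the linker between them frees the pore-forming part. The pores release small cytokines and can end in pyroptosis, an inflammatory form of cell death. The mouse carries a cluster of Gsdmc genes, known for their expression in gut epithelium and their induction there by type 2 cytokines, a cluster of Gsdma genes expressed mainly in skin and stomach, and the single genes Gsdmd and Dfna5, which is now named Gsdme.

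The gasdermin family was followed here in E16.5 mouse ureters by microarray. The list held 9 genes, Gsdmc, Gsdmc2, Gsdmc3, Gsdmc4, Gsdma, Gsdma2, Gsdma3, Gsdmd and Dfna5. Of these, 8 had at least 1 probe under their own name, with 11 probes in all, among 29982 genes with values on the arrays. The family was selected with the ratios of the Gsdmc probes in these same arrays in view. The ratios of its members are therefore given as a description, and nothing is read from calls on them.

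The series held 2 dual-colour arrays of NMRI embryos, array 1 from females and array 2 from males. Each array compared a pool of control ureters, genotype Pparg(fl/?), with a pool of Pparg-cKO ureters, genotype Pax2-cre/+; Pparg(fl/fl). The Pax2-cre transgene acts in the epithelium that descends from the nephric duct, ureteric lining and collecting ducts included, and the smooth muscle and other mesenchyme of the ureter are not its targets. Controls carried at least 1 floxed allele and no Cre transgene is given for them. The dyes were swapped between the arrays, and dye and sex cannot be told apart. The developmental stage field of the second channel read E14.5, against E16.5 in the titles and the dissection protocol.

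The sources disagree on which genotype each dye carried. According to the labels, control material carried AlexaFluor647 (red) on array 1 and AlexaFluor555 (green) on array 2, whereas the text of the study implies the opposite. It describes genes that were brighter here in the RNA labelled green on array 1 and red on array 2, among them Upk1a and Hsd17b2, as decreased in the mutant, by in situ hybridisation as well as by array. The signed folds that the authors deposited, under sample titles that put Pparg-cKO before control, carry the sign of red over green on array 1 and of green over red on array 2. The pools are therefore named by dye. The pools that were red on array 1 and green on array 2 are called pool A, and their partners pool B. Pool A is control by the dye labels, and Pparg-cKO by the text and by the signed folds read in the order of the titles. All ratios below are log2 of pool A over pool B, so a negative value means a brighter probe in pool B, and no genotype is attached to either. Where a pair of signals is given for an array, pool A comes first. Pparg itself gave signals of 11295 in pool A and 7430 in pool B on array 1, against 12888 and 7872 on array 2, and the log2 ratios averaged 0.66 ± 0.08 (SD, n = 2 arrays). The floxed exons 2 and 3 leave a truncated transcript, and where the Pparg probe lies relative to them was not determined, so this ratio does not settle the direction.

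Both arrays held 39429 probes in replicate spots, and no probe spot was saturated. Between 70.4% and 80.4% of the spots were well above background in a channel, a call that the scanner software makes for each spot and that is used here for a probe when at least 0.5 of its kept spots carry it, and 21429 genes passed the filter on dim probes. Among these, the median absolute difference between the log2 ratios of array 1 and array 2 was 0.29, and the 90th percentile was 0.79. Urothelial genes were bright, with Upk3a at 30472 to 51988, and so were smooth muscle genes, with Acta2 at 39606 to 72555. In such a tissue, fewer cells of a type and less RNA per cell cannot be told apart. With 1 pool of each kind per array, 2 arrays limit the precision, and the smallest two-sided p an exact sign-flip test could give is 0.5.

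The Gsdmc genes lie side by side on chromosome 15, and parts of their probes are shown to compare them with each other. The probes were not compared with the transcripts of the paralogues, so the comparison does not decide which paralogue each value belongs to. The positions are those of the array files (mm9), and whether a probe lies in coding or untranslated sequence was not determined. The Gsdmc probe (chr15:63608169-63608228, minus strand) and 1 of the 2 Gsdmc3 probes (chr15:63689822-63689881, minus strand) can be aligned without gaps over 41 bases, of which 36 match (87.8%). In the 30 bases shown, capitals mark the differing bases. Counted from 1 at the 5′ end of the window, with the Gsdmc base first and the Gsdmc3 base last, they are T4C, C6T, A20C and T22A.
Gsdmc, chr15:63608199-63608228: ttcTtCcaagcccagcctcAgTcctggata
Gsdmc3, second probe, chr15:63689833-63689862: ttcCtTcaagcccagcctcCgAcctggata
The longest run without a difference between these probes was 15 bases. No other pair among the 55 pairs of gasdermin probes could be aligned in this way, and their longest shared run was 9 bases. Signal from Gsdmc transcripts at the second Gsdmc3 probe, or the reverse, was not tested.

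The brightest Gsdmc3 probe (chr15:63689307-63689366, minus strand) lists transcripts of Gsdmc3 and of Gsdmc2 as its targets. Gsdmc2 had no probe under its own name, and its RNA and that of Gsdmc3 cannot be told apart at this probe. Its first 30 bases had no counterpart in another gasdermin probe and carry no capitals.
Gsdmc3 and Gsdmc2, first Gsdmc3 probe, chr15:63689337-63689366: ccttaccacgtctaggaaacaggatgttgt
The Gsdmc4 probe (chr15:63723278-63723337, minus strand) holds the hexamer AATAAA, the letters of the common polyadenylation signal, in capitals below. On the strand of the probe, 12.6% of all probes on the array hold this hexamer, among the gasdermins also 1 Gsdma2 probe.
Gsdmc4, chr15:63723281-63723310: taggctggtgggAATAAAgatgctatggat
Outside the family, the longest run that a Gsdmc subfamily probe shared with a probe of another gene was 14 bases, between Gsdmc4 and Nudt5.

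All 4 probes of the Gsdmc subfamily were brighter in pool B on both arrays. The first Gsdmc3 probe, which also reads Gsdmc2, gave signals of 212 in pool A and 1210.1 in pool B on array 1, followed by 149.9 and 560.5 on array 2. This was a 5.71-fold difference on array 1 and a 3.74-fold difference on array 2, and the log2 ratios averaged −2.21 ± 0.43 (SD, n = 2 arrays). The second Gsdmc3 probe, listed for Gsdmc3 alone, was dimmer, at 77.4 and 339.5 on array 1 and at 55.8 and 166 on array 2. Its mean log2 ratio was −1.85 ± 0.40 (SD, n = 2). Both probes of this gene thus had the brighter signal in the same pool.

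Gsdmc, at one end of the cluster, gave 75 in pool A and 280.0 in pool B on array 1, and 57.5 and 160.0 on array 2. Its mean log2 ratio was −1.69 ± 0.30 (SD, n = 2), the smallest difference of the 4 probes. Gsdmc4 gave 45.8 and 214 on array 1, and 32.1 and 123 on array 2. Its mean was −2.08 ± 0.21 (SD, n = 2), and its 4.68-fold and 3.82-fold differences were the closest to each other across the arrays. The means of the 4 probes lay within 0.52 of each other on the log2 scale, and the SDs over the arrays were 0.21 to 0.43, so their order is not resolved.

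**Figure D1:**
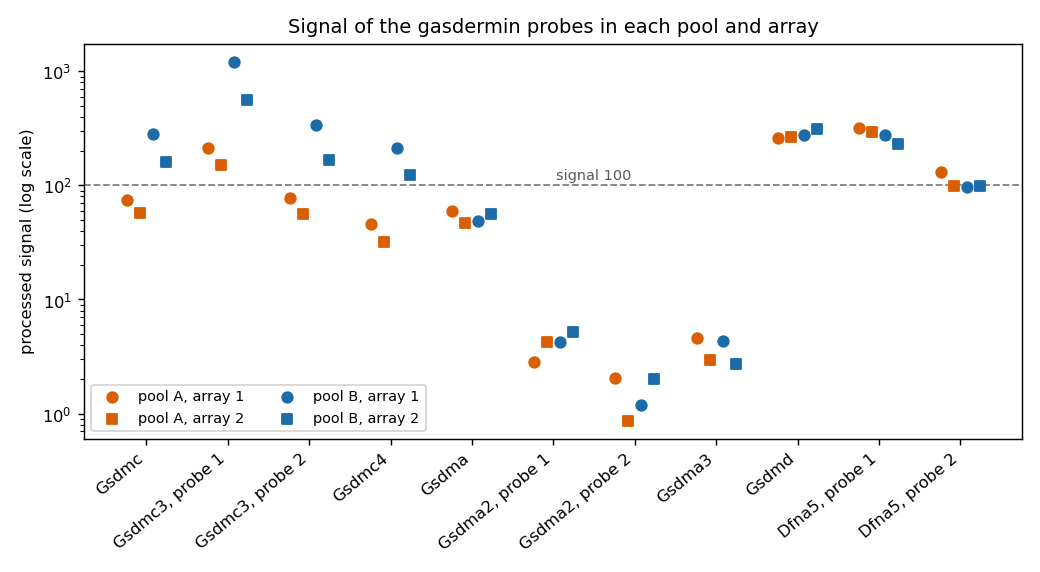
Processed signal (log scale) of the 11 gasdermin probes, with pool A in orange and pool B in blue, circles for array 1 and squares for array 2, and a dashed line at a signal of 100. In the 4 Gsdmc subfamily probes both blue symbols lie above both orange ones, a gap not seen at this size in Gsdma, Gsdmd and Dfna5. Probes 1 and 2 of a gene are numbered by their mean signal.

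Each probe was spotted repeatedly, and the spots show the technical spread within an array. For every Gsdmc subfamily probe, 4 spots were kept on each array, and the range of pool A did not overlap with the range of pool B on either array. On array 1, the spots of the first Gsdmc3 probe spanned 191 to 230.4 in pool A and 1101.6 to 1311 in pool B, and on array 2 they spanned 146 to 155 and 544 to 581. The SD of the log2 ratio over spots lay between 0.01 and 0.13 for the 4 probes, below the SD between the arrays in each case. Spots of 1 hybridisation share their RNA, and their spread says nothing about other pools. The spot ranges of the pools were also apart for Gsdmd, at differences of 1.06-fold and 1.18-fold, so that separation over spots occurs at small differences too.

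**Figure D2:**
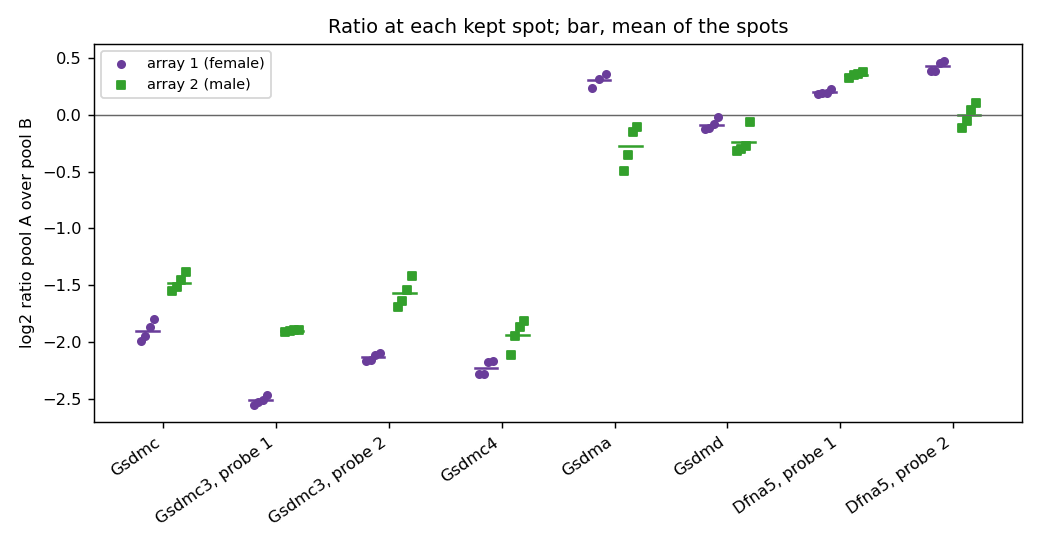
Log2 ratio of pool A over pool B (y axis) at each kept spot of the 8 gasdermin probes that were well above background, with circles for array 1, squares for array 2 and bars for the mean over spots. The spots of the Gsdmc subfamily lie at −1.38 or lower, and those of Gsdma, Gsdmd and Dfna5 between −0.50 and 0.47.

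The difference between the pools was larger on array 1 than on array 2 for each of the 4 probes, by 0.29 (Gsdmc4) to 0.61 (first Gsdmc3 probe) on the log2 scale. This gap lay within the spread of all genes tested, whose 90th percentile was 0.79. The signals themselves were also higher on array 1. In pool B, the Gsdmc subfamily probes were 1.75-fold to 2.16-fold brighter on array 1, and in pool A 1.30-fold to 1.43-fold, whereas the median log2 difference of array 1 minus array 2 over all genes tested was −0.06 in pool B and −0.07 in pool A. The arrays were not normalised to each other, and array, dye orientation, sex and pool of embryos cannot be told apart here.

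Among the 4 measured genes of cornified skin, Krt1 and Lor, a keratin and a cell envelope protein of the epidermis, were brighter on array 1 as well. Krt1 was 5.44-fold brighter in pool A and 5.16-fold in pool B, and Lor 7.97-fold and 5.55-fold. Krt10 was 1.77-fold and 1.32-fold brighter on array 1, and Ivl was not, at 0.958-fold and 0.759-fold. Ivl is not particular to skin here, since the study found it by in situ hybridisation in the urothelium of control ureters. The 4 genes summed to 7406 in pool A and 6276 in pool B on array 1, and to 2289 and 2698 on array 2. The share of cornified skin cells in the Gsdmc signal was not tested. Gsdma, itself known from skin, was at 60.2 and 48.8 on array 1 and at 46.8 and 56.7 on array 2.

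When both arrays had to differ by 1.5-fold or more the same way, with the brighter pool at a signal of 100 or above, 3 of the 8 gasdermin genes were past this filter in pool B, namely Gsdmc, Gsdmc3 and Gsdmc4. Of all 29982 genes, 0.23% were past it in that direction. In pool A, 0 gasdermin genes were past it, against 0.157% of all genes. The limma fit over 21429 genes called 0.187% of them brighter in pool B and 0.126% brighter in pool A at an adjusted p below 0.05, and the same 3 gasdermins were among the former. limma called 0 gasdermins where dim probes were kept in, with the authors' table, and with normexp and loess. Since the family was picked from these ratios, nothing is read from these counts. The median of the mean log2 ratio over the 11 gasdermin probes was −0.20, and over all probes it was 0.00. The median of the gasdermins fell on a Gsdma2 probe that was not well above background, and was −0.30 on array 2 alone and −0.09 on array 1 alone.

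**Figure D3:**
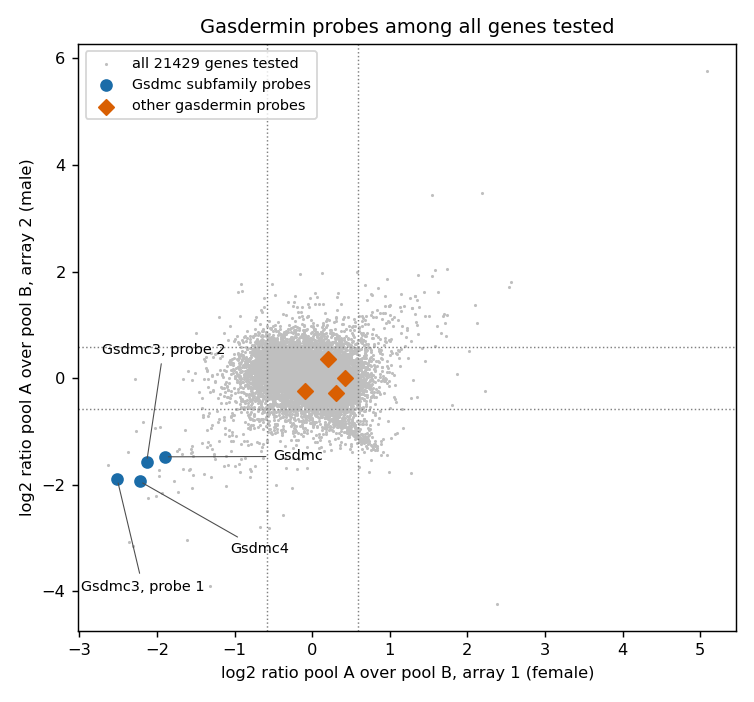
Log2 ratio of pool A over pool B on array 1 (x axis) and array 2 (y axis) for the 21429 genes tested (grey) and the 8 gasdermin probes well above background, in blue for the Gsdmc subfamily and orange for the others, with dotted lines at 1.5-fold. The Gsdmc subfamily lies in the lower left, past 1.5-fold on both arrays, and the other probes lie within the dotted lines.

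The skin and stomach branch of the family was dim. Gsdma (chr11:98537914-98537973, plus strand) was well above background in both pools, at the signals given above. It was the brighter probe in pool A on array 1 and in pool B on array 2, so the red channel was brighter on either array, and its mean log2 ratio was 0.01 ± 0.41 (SD, n = 2). Gsdma2 had 2 probes (chr11:98512243-98512302 and chr11:98519203-98519262, plus strand), at signals of 0.868 to 5.20, and neither was well above background in the same pool on both arrays. Gsdma3 (chr11:98499344-98499403, plus strand) was not well above background, at 2.72 to 4.57. No fold is given for Gsdma2 and Gsdma3. Of 3 stomach markers, Tff1 was not well above background, and Gkn1 and Muc5ac were, at 7.43 to 18.0 and 12.8 to 16.2.

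Gsdmd, the gasdermin cut by the inflammatory caspases, lies on chromosome 15 too (chr15:75697536-75697595, plus strand), outside the Gsdmc cluster. It gave 262 in pool A and 279 in pool B on array 1, and 264 and 312 on array 2. Its mean log2 ratio was −0.16 ± 0.11 (SD, n = 2), and it was below 1.5-fold on both arrays.

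Dfna5 (Gsdme), a gasdermin first named for its role in hearing loss, had 2 probes on the minus strand of chromosome 6. The brighter one (chr6:50157436-50157495) gave 317 in pool A and 276 in pool B on array 1, and 292.5 and 229 on array 2, and the log2 ratios averaged 0.27 ± 0.11 (SD, n = 2). The dimmer one (chr6:50151747-50151806) gave 130.4 and 97.0 on array 1, and 98.4 and 98.8 on array 2, and averaged 0.21 ± 0.31 (SD, n = 2). The probes differed in their array 2 value, where the first was 1.27-fold brighter in pool A and the second was even. Neither reached 1.5-fold on any array.

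The Gsdmc cluster also holds pseudogenes and an unnamed probe, whose values are given here beside those of the genes around them. Within 500 kb of the cluster there were 13 other genes or unnamed probes, 8 of them well above background in a pool. None of these 13 was past the fold and signal filter. Several, the pseudogenes and the unnamed probe among them, stayed below the signal of 100 that the filter requires and could not pass. The filter held 0.23% of all genes in pool B and 0.157% in pool A, so nothing is read from this count. The unnamed probe between Gsdmc3 and Gsdmc4 (chr15:63694100-63694159) gave 18.3 and 22.2 on array 1, and 15.9 and 18.5 on array 2, and the log2 ratios averaged −0.25. Gsdmcl2, a transcribed pseudogene, gave 16.6 and 15.8 on array 1 and 8.81 and 6.05 on array 2, and Gsdmcl1 was not well above background.

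The pseudogene Gsdmcl-ps, beyond Gsdmc4 at the far end of the cluster (chr15:63756950-63757008, plus strand), was well above background in pool B alone. It gave 2.10 in pool A and 10.8 in pool B on array 1, and 1.76 and 14.9 on array 2. Its pool A signal is a bound set by the background, so no fold is given, and its pool B signal was far below 100. Cyrib, the next gene on that side, which encodes a regulator of actin dynamics, gave 311 and 299.5 on array 1 and 292 and 306 on array 2, an even ratio of −0.01. On the Gsdmc side, the nearest named gene, 4930449C09Rik, was not well above background. Over the 8 measured neighbours the median log2 ratio was −0.05.

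**Figure D4:**
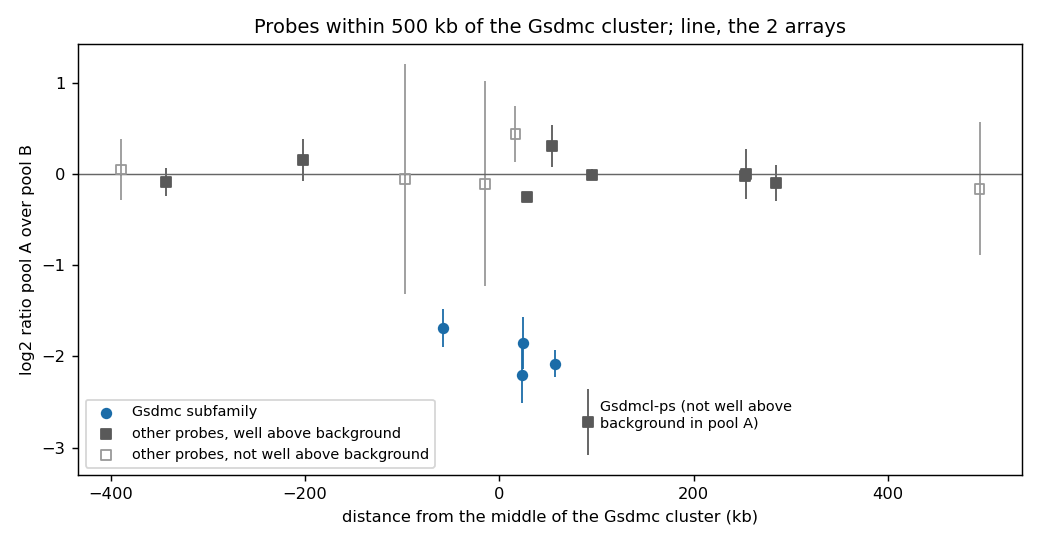
Mean log2 ratio of pool A over pool B (y axis) against the distance from the middle of the Gsdmc cluster in kb (x axis), with vertical lines joining the values of both arrays, blue circles for the Gsdmc subfamily, filled squares for other probes well above background in a pool, and open squares for probes that were not. The blue circles lie between −2.21 and −1.69, and the squares around 0 except Gsdmcl-ps, whose pool A signal was not well above background.

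The fold and signal filter was also applied to the neighbours of the other gasdermins. It held 0.23% of all genes in pool B and 0.157% in pool A, and neighbours below a signal of 100 could not pass. Low counts therefore do not show that few neighbours differed. Around the Gsdma cluster, 0 of 38 neighbouring genes were past the filter, and around Gsdmd 0 of 42. Around Dfna5, 1 of 12 was, Osbpl3, which encodes an oxysterol-binding protein. It was brighter in pool B, at 337 and 569 on array 1 and at 372 and 602 on array 2, with a log2 ratio of −0.72. This is the opposite sign to that of Dfna5 itself.

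The upstream sequence of Gsdmc3 is shown because both of its probes were past 1.5-fold on both arrays. Of the family, promoters of Gsdmc3, Gsdma3 and Gsdme were found in the RefSeq table used here (GRCm38.p6), each with 250 bases before the start of transcription. For Gsdmc3, the 229 bases outside the annotated gene span are printed (chr15:63878580-63878808, minus strand).
Gsdmc3 promoter: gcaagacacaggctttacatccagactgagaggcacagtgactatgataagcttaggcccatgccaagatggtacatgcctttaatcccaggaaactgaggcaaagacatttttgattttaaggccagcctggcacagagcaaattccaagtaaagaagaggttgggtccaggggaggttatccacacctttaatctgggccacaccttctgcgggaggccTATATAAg
Capitals mark TATATAA, which resembles the TATA box and was searched for after this sequence had been read. It begins 29 bases before the start of transcription used for the 250 bases. Of these 29 bases, the last 21 lie inside the annotated gene span. TATATAA is found on either strand in 3.04% of the 32851 promoters searched. PPARG binds DNA together with a retinoid X receptor, at direct repeats of AGGTCA spaced by 1 base. The single site AGGTCA was not found on either strand in the 250 bases of Gsdmc3, Gsdma3 or Gsdme, and it occurs in 14% of all promoters. The repeat AGGTCANAGGTCA, which contains this site, was not found in them either and occurs in 0.0335%. Nothing follows from this about binding outside these windows.

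Other genes of the pore-forming pathway were examined through 8 lists with 57 genes, from sensors and caspases to membrane repair. Of these, 52 were well above background and entered the limma test. None was past the fold and signal filter, and limma called 0 in either direction, the lowest adjusted p being 0.484 for Gzma. Genes below a signal of 100, such as Gzma, Aim2 and Il4ra, could not pass that filter. It held 0.23% of all genes in pool B and 0.157% in pool A, so nothing is read from 0 among these 52. At an unadjusted p below 0.05, 1 of the 52 was brighter in pool A (Gzma) and 1 in pool B (Tyk2), against 1.68% and 2.1% of all genes tested. Their median log2 ratio was 0.05, and over all genes tested it was 0.01.

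The sensors and adaptors of inflammasomes, the complexes that activate caspase 1, were represented by 11 tested genes with a median of 0.18. Naip5, a sensor of bacterial flagellin, gave 7230 and 8915 on array 1 and 8715 and 8982 on array 2 (mean log2 ratio −0.17 ± 0.18, SD, n = 2). Pycard, the adaptor that links sensors to caspase 1, gave 4826 and 4207 on array 1 and 5510.0 and 4835 on array 2 (0.19 ± 0.01). Both were even within 1.5-fold.

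All 8 caspases were measured, with a median of 0.10 and a range of −0.07 to 0.35. Casp6 and Casp8, the probes of highest signal, had mean log2 ratios of 0.06 ± 0.20 and 0.13 ± 0.19 (SD, n = 2). Casp8 is known to cut gasdermins, including human GSDMC. The caspases that cut Gsdmd are named for that role, after their values were seen. Casp1 gave 301 and 214 on array 1 and 269 and 232 on array 2. Casp4 gave 449 and 366 on array 1 and 464 and 363.5 on array 2. Both were brighter in pool A on both arrays by less than 1.5-fold.

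Of the serine proteases that cut gasdermins, Gzma, a granule protease of cytotoxic lymphocytes, was dim, at 38.8 and 17.9 on array 1 and at 30.7 and 21.7 on array 2 (0.81 ± 0.44, SD, n = 2). Elane, neutrophil elastase, changed sides, at 5560 in pool A and 3501 in pool B on array 1 and at 2663 and 6164 on array 2. It was brighter in the red channel on both arrays. The cytokines Il1a and Il1b, which leave cells through gasdermin pores, were not well above background. Hmgb1, a nuclear protein released by dying cells, and Il33, an alarmin, were bright and even, at mean log2 ratios of 0.16 ± 0.03 and 0.07 ± 0.18 (SD, n = 2).

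Necroptosis genes and the adaptors above them had a median of 0.05 over 11 genes. The adaptor Myd88 and the transcription factor Irf1, of the highest signal in the list, were at 0.05 ± 0.09 and −0.04 ± 0.04 (SD, n = 2). The ESCRT genes, whose products remove damaged membrane and gasdermin pores, had a median of 0.01 over 8 genes, with Chmp4b at −0.05 ± 0.36 and Chmp2a at 0.14 ± 0.08. All of these were below 1.5-fold in the mean.

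Since type 2 cytokines are known to induce Gsdmc genes in the gut, their receptors and the signalling genes below them formed a list of 6, all measured. None was past the filter, which Il4ra and Tyk2 could not pass at signals below 100, and their median was 0.14. Jak1, a kinase bound to the receptors, gave 0.03 ± 0.11 and Stat6, the transcription factor they activate, −0.06 ± 0.42 (SD, n = 2). Stat6 was brighter in pool B on array 1 (890 and 1138) and in pool A on array 2 (1255 and 1063). The gene of pejvakin, a relative of the gasdermins named for its role in hearing, was dim and changed sides, at 23.3 and 30 on array 1 and at 30.9 and 26.3 on array 2.

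Markers of cell types moved with the Gsdmc genes in part. Of all genes tested, 17.4% were brighter in pool B on both arrays and 21.6% in pool A. Of 7 urothelial genes, 4 were brighter in pool B on both arrays, and Upk1a, a uroplakin of the luminal cells, averaged a log2 ratio of −1.32 ± 0.14 (SD, n = 2; limma, adjusted p = 0.0451). Over the alternatives its adjusted p ranged from 0.0175 to 1, and it was above 0.05 in 5 of 9. Upk3a was past the fold and signal filter at −0.70 ± 0.09 but was not called (limma, adjusted p = 0.513). The summed signal of the urothelial list was 56804 and 57066 in pool A and 89958 and 92462 in pool B. Upk3a was the largest part, at 32480 and 30472 in pool A and at 50577 and 51988 in pool B. Krt5, a marker of basal cells, was at 0.47 ± 0.29, and Trp63, a marker of basal and intermediate cells, at −0.11 ± 0.29. The 4 smooth muscle genes were brighter in pool B on both arrays, with means of −0.80 to −0.56, and limma called 0 of them (lowest adjusted p 0.534, and 4 at an unadjusted p below 0.05).

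Genes listed for other epithelia gave mixed values. Ivl was listed for cornified skin. By in situ hybridisation, the study found it strongly in luminal and intermediate urothelial cells of control ureters, and reduced in the mutant. Ivl, a protein of squamous cell envelopes, was past the filter in pool B, at 215 and 386 on array 1 and at 224 and 509 on array 2 (−1.02 ± 0.24, SD, n = 2; limma, adjusted p = 0.145). The kidney transporter Slc34a1 was called by limma at an adjusted p of 0.0122, at 6.20 and 30.8 on array 1 and at 4.2 and 37.2 on array 2, and in pool A of array 1 it was not well above background. Its adjusted p was above 0.05 in 3 of 9 alternatives, with a range of 0.00619 to 1. The 4 nephron genes summed to 210.5 and 219 in pool A and to 266 and 332 in pool B. Most of this came from Lrp2, at 196 and 211 in pool A and at 230 and 291 in pool B. Umod and Slc12a1, which define the thick ascending limb, were not well above background. Of 3 collecting duct genes, Fxyd4 was past the filter in pool A (1.16 ± 0.56, SD, n = 2; limma, adjusted p = 0.154). The other genes, Aqp2 and Aqp4, averaged 0.12 and 0.22, at signals below the 100 that the filter requires.

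Gut markers bear on the known site of Gsdmc expression. Cdx2, which defines intestinal epithelium, was not well above background. Cdx1, Vil1 and Fabp2 lay between 8.70 and 33, below the signal of 100 that the filter requires, so they could not pass it. Their mean log2 ratios were −0.02, −0.16 and −0.28. The macrophage genes Csf1r, Cd68, Adgre1 and Lyz2 were brighter in pool A on both arrays, with a median of 0.18, and none was called. Of the 4 neutrophil genes and the 3 genes of ureteric mesenchyme, 0 were past the filter or called. The part of any of these cell types in the Gsdmc ratios was not tested.

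The genes most like the first Gsdmc3 probe were taken as the 5 with the shortest straight-line distance to its pair of log2 ratios, over 2 arrays and the genes past the filter on dim probes, with the gasdermins themselves left out. They were Xlr5b (distance 0.30 from the measured signals), Hsd17b2 (0.53), Fa2h (0.53), Slc9a4 (0.55) and Fam183b (0.57). Hsd17b2, which oxidises oestradiol and testosterone, gave 112 and 485.5 on array 1 and 112 and 533 on array 2. Fa2h, a hydroxylase of fatty acids, gave 164 and 851 on array 1 and 274 and 716 on array 2. These were the nearest genes with signals above 100 in both pools.

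Slc9a4, a sodium and hydrogen exchanger, gave 16.4 and 64.1 on array 1 and 22.3 and 80.0 on array 2. Fam183b gave 44.8 and 176 on array 1 and 50.4 and 167 on array 2. Xlr5b was dim, at 2.44 and 15.1 on array 1, where pool A was not well above background, and at 14.4 and 44.6 on array 2. Its ratio on array 1 is thus a bound, and its distance and its place among the 5 are not defined. None of the 5 lies on chromosome 15.

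The ratios of the gasdermin probes were recomputed under 8 alternatives, which were other ways of processing and leaving out either array. The 4 Gsdmc subfamily probes were brighter in pool B under each of them, with mean log2 ratios of −2.51 to −1.90 for the first Gsdmc3 probe, −2.13 to −1.57 for the second, −2.23 to −1.64 for Gsdmc4 and −1.90 to −1.44 for Gsdmc. Gsdma ranged from −0.28 to 0.30 and thus took either sign, whereas Gsdmd stayed between −0.24 and −0.09 and the brighter Dfna5 probe between 0.20 and 0.35. The dimmer Dfna5 probe ranged from −0.01 to 0.43 and took either sign too. The upper ends for Gsdmc4 and Gsdmc came from normexp and loess. All other ends of these ranges were the values of either array alone.

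**Figure D5:**
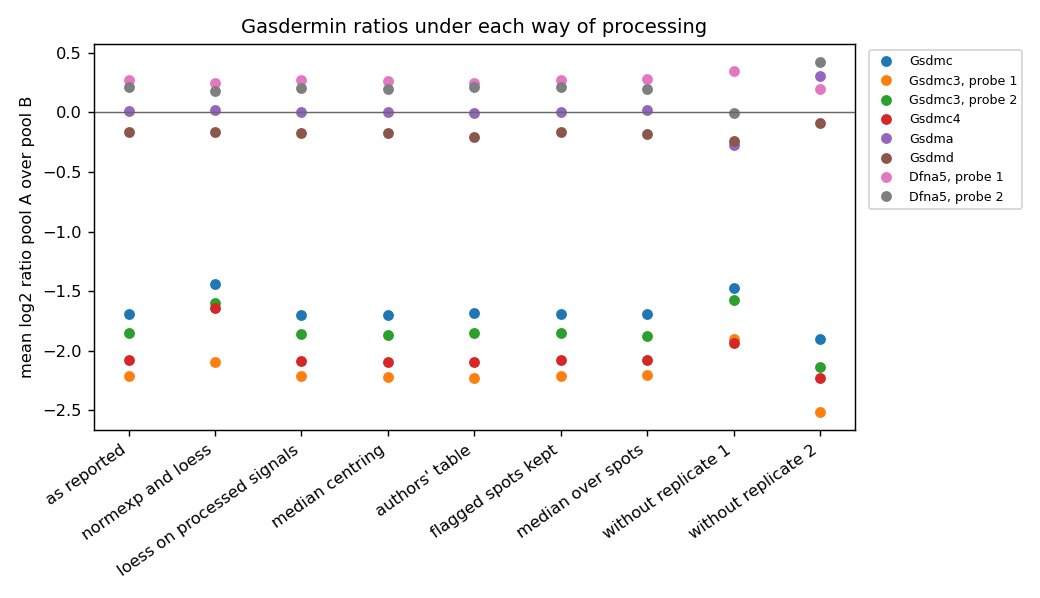
Mean log2 ratio of pool A over pool B (y axis) of the 8 gasdermin probes well above background, as reported and under each of 8 alternatives (x axis), 1 colour per probe. The alternatives include leaving out either array. The 4 Gsdmc subfamily probes lie at −1.44 or lower in every column, and the other probes between −0.28 and 0.43.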

How the data were processed

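Per the file headers, the authors scanned both arrays with Agilent Feature Extraction 10.7.3.1 and deposited an intensity per spot and channel. The processed intensity, already background-subtracted and dye-normalised, was used here. Control spots and spots flagged as outliers were left out, each probe took the mean of its log2 intensities, and the log2 ratio was pool A over pool B. A gene stood by its probe of highest mean signal. Of 39429 probes, 28328 were named through RefSeq, and the others kept the name in the file. The filter (1.5-fold on both arrays, signal of at least 100) follows the study's methods. limma 3.58.1 (R 4.3.3) was fitted to genes whose probe, in 1 pool or both, stood well above background on each array.

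The authors also deposited a table with another measure, a signed fold per probe and array, under sample titles that put Pparg-cKO before control. Its sign was that of pool A over pool B for 99.9% of the probes past 1.5-fold and a signal of 100 on array 1 and 100.0% on array 2. It served as an alternative.

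The members and gene lists were chosen with earlier results of these data known. Named genes were the members, Pparg, list genes past the filter or called (otherwise the 2 of highest signal), neighbours past the filter or nearest, and the 5 genes of most similar ratio. Arrays are separate pools, and p-values measure the spread between these 2 alone.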

Additional observations from a re-analysis of the deposited data

How the results depend on the processing

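Gsdmc, Gsdmc3 and Gsdmc4 were past the fold and signal filter in pool B under 13 of the 14 alternatives, leaving out either array included. With a signal of at least 200 in place of 100 the count was 1. The median log2 ratio over all 11 gasdermin probes was −0.20 as reported, −0.045 with normexp and loess and −0.0063 with the authors' table. As reported it fell on the dimmer Gsdma2 probe, with normexp and loess on the brighter one, and with the authors' table on Gsdma. Neither Gsdma2 probe was well above background, whereas Gsdma was, and the cause of the shift was not tested. Over all genes, 47 were past the filter in pool A and 69 in pool B. With a signal of 200, 28 were past it in pool A. Where the scanner's background call replaced the signal threshold, the counts were 128 and 148, with no signal threshold 193 and 239, and at 2-fold 19 and 29. With 1 array alone they were 301 to 321 in pool A and 488 to 637 in pool B, since 1 array has to pass in place of both. limma called 27 genes brighter in pool A and 40 in pool B. The counts were 1 and 0 with normexp and loess, 9 and 24 with loess on the processed signals, and 0 and 0 with the authors' table or with no filter on dim probes, and the cause was not tested. At an unadjusted p below 0.05 those fits held 536 (normexp), 567 (authors' table) and 494 (no filter) genes. In pool A, 16 were called with median centring and 16 with the median over spots. The 3 Gsdmc genes were called in each fit but those with normexp and loess, the authors' table and no filter on dim probes, where 0 were. Since the family was picked from these ratios, nothing is read from these calls or from the filter counts of its genes. limma without replicate 1 or 2 has no residual degrees of freedom and was not run. Probes near background limit what can be said of Gsdma2 and Gsdma3.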

Other observations

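Some genes took opposite signs on the arrays. Elane was brighter in the red channel on both arrays (log2 ratios of pool A over pool B of 0.67 and −1.21), and Col1a1, a collagen of the mesenchyme, was brighter in the green channel on both (−0.80 and 0.67). Across all genes, 129 were at least 1.5-fold different in opposite directions on the arrays at a signal of at least 100, against 116 past the filter in the same direction. Dye, sex, array and pool cannot be told apart for these genes.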
